A study of Homo sapiens with 24 samples.

Results

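The genes described here encode the structural subunits of complexes I, III and IV of the respiratory chain and of complex V, the ATP synthase, the enzymes that together carry out oxidative phosphorylation. Members were chosen by name. They are protein-coding GENCODE genes whose symbols start with MT-ND, MT-CO, MT-CYB, MT-ATP, NDUFA, NDUFB, NDUFC, NDUFS, NDUFV, UQCR, COX4I, COX5, COX6, COX7, COX8 or ATP5, without the NDUFAF assembly factors, and with 5 or more counts on average across the 24 libraries. Of 99 genes with such a symbol, 91 passed the minimum, out of 19997 genes tested. The mitochondrial genome carries 13 of them and nuclear chromosomes carry 78, of which 37 belong to complex I, 9 to complex III, 14 to complex IV and 18 to complex V. NDUFA4 and NDUFA4L2 were placed in complex IV. The 8 genes under the minimum were COX7A1, with a mean of 4.58 counts just outside it, COX6A2 with 2.58, ATP5MF-PTCD1, ATP5MGL, COX4I2, COX7B2, COX8C and NDUFC2-KCTD14. The 2 members just inside it were NDUFA7, with a mean of 6.92 counts, and NDUFV2, with 13.8.

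RNA was sequenced from SW872 cells, an established human liposarcoma line. The cells carried an integrated pBabeNeo retrovirus and had been selected with G418, controls included, and the 3 libraries of a group came from separate transductions. The 8 groups of 3 libraries were empty vector (EV), the fusion TAZ-CAMTA1, TAZ4SA, the fusion YAP-TFE3, YAP5SA, TFE3, CAMTA1, and an empty vector group titled sub-confluent (EVsub). CAMTA1 and EVsub cells were collected before confluence and EV, TAZ4SA, YAP-TFE3, YAP5SA and TFE3 cells 48 h after reaching it, so CAMTA1 was compared with EVsub and these with EV. For TAZ-CAMTA1 the sources can be read in 2 ways, since the labels set apart the CAMTA1 line and the study's methods set apart the lines containing CAMTA1. It was compared with EV and with TAZ4SA, and if it was collected before confluence, density and construct cannot be told apart in its results. In TAZ4SA and YAP5SA, serines that the Hippo kinases phosphorylate are replaced by alanine. The fusions join the N terminus of TAZ or YAP to the C terminus of CAMTA1 or TFE3.

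Libraries held between 19700277 and 35287476 counts. The introduced genes moved with their labels for CAMTA1 in TAZ-CAMTA1 (log2 fold change 2.75 over EV) and CAMTA1 (2.43 over EVsub), for TFE3 in TFE3 (1.49) and YAP-TFE3 (1.25), and for YAP1 in YAP5SA (0.99). WWTR1, the gene of TAZ, went against its label, with a log2 fold change of -0.60 in TAZ4SA over EV, so that group is called the libraries labelled TAZ4SA and its directions belong to libraries with less WWTR1 than EV. Low WWTR1 was not particular to this group, as it was lower still in YAP5SA over EV (-1.57). The study shows Flag-tagged TAZ4SA protein in SW872 cells by western blot. Why WWTR1 counts were low was not tested. Of 5 markers of mesenchymal cells, VIM held 464 to 1154 CPM (counts scaled to a common library size by edgeR, the usual CPM), SPARC 482 to 2976 CPM, FN1 785 to 6263 CPM, COL1A1 6.83 to 85.5 CPM and COL1A2 17.1 to 194 CPM. Of 5 markers of fat cells, ADIPOQ was at 0 in every library, LEP and CIDEC held at most 3 counts, FABP4 at most 23 and PLIN1 10 to 38. The third YAP-TFE3 library stood apart from the other 2 of its group, and not in mitochondrial transcripts alone. Its summed share of the nuclear subunit genes was 0.831% of all counts, against 0.695% and 0.702% in the first and second. Chi-square per degree of freedom between its counts and those of the first and second was 72.4 and 57.0. It was 11.3 between those 2 and at most 26.0 within any other group. YAP-TFE3 results are therefore also given without the third library.

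Complex I takes electrons from NADH and complex III passes them through cytochrome c to complex IV, which reduces oxygen. Complexes I, III and IV pump protons across the inner mitochondrial membrane, and complex V uses the return of the protons to make ATP. Mitochondrial DNA encodes core membrane subunits of each of these complexes, its genes are read as long transcripts from both strands that are cut at transfer RNAs, and every other subunit is made from a nuclear gene and imported, so that the complexes need products of both genomes.

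The junction between MT-ND5 and MT-ND6 is shown because the results below turn on these neighbours, which lie on opposite strands. MT-ND5 ends at base 14148 of the mitochondrial genome and MT-ND6 begins at base 14149, with no base between them. The 60 bases below are chrM:14119-14178 of hg38, plus strand, and the capitals mark the last codon of MT-ND5 followed by the complement of the last codon of MT-ND6.
MT-ND5 and MT-ND6 junction: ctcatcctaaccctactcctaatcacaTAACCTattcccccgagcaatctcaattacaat

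Promoters of 4 nuclear members are shown because these genes passed the test in the libraries labelled TAZ4SA or in YAP5SA, UQCRC1, COX8A and COX6A1 upward and NDUFB3 downward, and differ in the letters they hold. Each line gives the 250 bases before a RefSeq start (GRCh38.p14) that is also the start of the gene's canonical transcript. The bases run 5′ to 3′ on the strand of the gene. For UQCRC1, COX6A1 and NDUFB3 this start lies inside the outer bounds of the gene, and distances below are counted from it. The windows are chr3:48609647-48609896 on the minus strand, chr11:63974370-63974619 and chr12:120437863-120438112 on the plus strand, and chr2:201071751-201072000 on the plus strand. Capitals mark letters of the binding motifs of NRF1 (GCGCA, any 1 base, then GCGC), of ETS factors such as GABPA (CCGGAAG) and of TEAD factors (CATTCC), searched on both strands.
UQCRC1: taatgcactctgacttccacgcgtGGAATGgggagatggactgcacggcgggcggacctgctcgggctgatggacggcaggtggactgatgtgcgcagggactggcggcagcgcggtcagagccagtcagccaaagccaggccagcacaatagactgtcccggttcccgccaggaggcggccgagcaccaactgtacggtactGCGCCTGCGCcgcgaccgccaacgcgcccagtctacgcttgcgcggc
COX8A: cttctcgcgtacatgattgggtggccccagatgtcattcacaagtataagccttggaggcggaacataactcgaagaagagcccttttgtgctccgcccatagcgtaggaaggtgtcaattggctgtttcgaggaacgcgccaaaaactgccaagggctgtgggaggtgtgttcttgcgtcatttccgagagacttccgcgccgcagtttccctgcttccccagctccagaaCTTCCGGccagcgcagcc
COX6A1: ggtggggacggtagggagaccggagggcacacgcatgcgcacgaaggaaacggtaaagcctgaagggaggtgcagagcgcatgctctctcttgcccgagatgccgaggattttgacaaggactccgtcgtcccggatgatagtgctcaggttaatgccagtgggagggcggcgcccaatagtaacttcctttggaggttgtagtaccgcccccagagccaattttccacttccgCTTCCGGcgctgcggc
NDUFB3: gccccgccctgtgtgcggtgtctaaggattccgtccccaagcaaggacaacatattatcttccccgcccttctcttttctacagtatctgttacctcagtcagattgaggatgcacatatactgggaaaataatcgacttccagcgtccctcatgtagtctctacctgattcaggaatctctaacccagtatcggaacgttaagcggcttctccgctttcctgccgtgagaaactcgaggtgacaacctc

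UQCRC1 held the NRF1 letters with their first base 47 bases before the start and the TEAD letters 226 bases before it. In COX8A and COX6A1 the ETS letters lay 18 and 16 bases before the start, and NDUFB3 held none of these motifs. Over windows that ran from 250 bases before to 50 after each start, the RefSeq table gave 77 windows for 64 of the 78 nuclear members and 35116 windows in all. The ETS letters were present in 26.0% of the members' windows and in 10.3% of all windows. The NRF1 letters were present in 18.2% and 5.78%, the TEAD letters in 10.4% and 14.0%, and the E-box CACGTG, a class of site that TFE3 binds, in 9.09% and 7.26%. The hypoxia letters ACGTG, which lie within CACGTG, were present in 24.7% and 21.4%. Letters and direction did not go together in every member. COX7A2 and COX7A2L, which rose in the libraries labelled TAZ4SA, held none of these letters. NDUFA13, which fell there, held ETS and TEAD letters. Members without a matched window included ATP5F1B, ATP5F1D, ATP5MC3, ATP5MF, COX6C, NDUFA4, NDUFA4L2, NDUFB5, NDUFB9, NDUFC2, NDUFS5, UQCRB and UQCRHL. A match of letters is a description of the sequence and not a measured binding site.

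Transcripts of the mitochondrial genome far outnumbered those of the nuclear subunits. Per kilobase of the canonical transcript, the 13 mitochondrial genes had a median of 2283 CPM over all libraries, from 692 for MT-ND6 to 10416 for MT-CO2, which encodes the subunit of complex IV that accepts electrons from cytochrome c. The 78 nuclear genes had a median of 76.0 CPM per kilobase, from 0.423 to 499, the latter for ATP5F1B, the catalytic beta subunit of the ATP synthase.

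The summed share of the 13 mitochondrial genes was 4.64%, 4.92% and 4.89% of all counts in the EV libraries. It was 3.31%, 3.29% and 2.97% in EVsub, 4.33%, 4.11% and 3.71% in CAMTA1, and 3.40%, 3.90% and 3.95% in YAP5SA. EVsub and YAP5SA thus lay below EV in every library, and each CAMTA1 library lay above each EVsub library. In YAP-TFE3 the share was 3.01%, 3.19% and 4.62%, so the third library lay just under the lowest EV value while the other 2 lay in the range of EVsub. The libraries labelled TAZ4SA held 4.23%, 4.25% and 3.63%, all below EV, whereas TAZ-CAMTA1 (5.03%, 4.33% and 3.83%) and TFE3 (5.80%, 4.77% and 4.88%) overlapped EV. The summed share of the 78 nuclear genes lay between 0.691% and 0.840% in all 24 libraries. The ratio of mitochondrial to nuclear subunit counts, which no scaling changes, was 6.15 ± 0.09 in EV (SD, n = 3), 4.02 ± 0.31 in EVsub, 5.23 ± 0.56 in CAMTA1, 4.81 ± 0.66 in YAP-TFE3 and 4.97 ± 0.49 in YAP5SA. It was 5.35 ± 0.37 in the libraries labelled TAZ4SA, 6.08 ± 0.59 in TAZ-CAMTA1 and 6.83 ± 0.65 in TFE3. Every TFE3 library (7.57, 6.35 and 6.57) lay above every EV library (6.05, 6.19 and 6.21). Every library labelled TAZ4SA lay below EV, and TAZ-CAMTA1 overlapped it. In bulk RNA, fewer cells with a transcript and less of it per cell cannot be told apart.

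**Figure D1:**
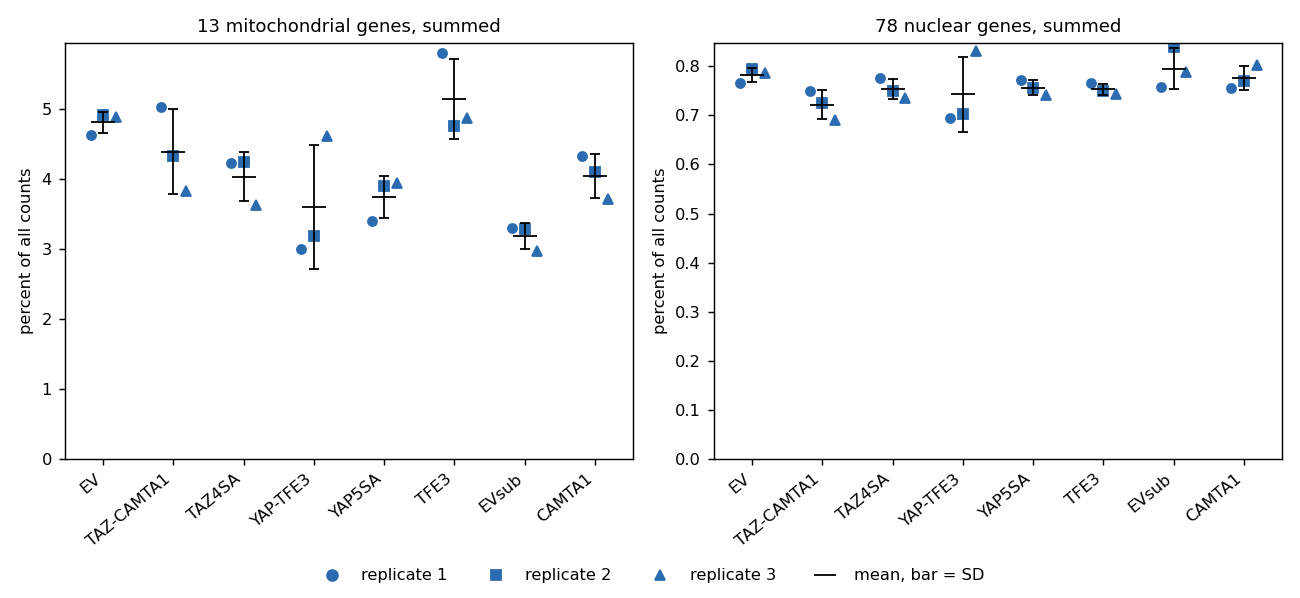
Summed counts of the 13 mitochondrial (left) and 78 nuclear (right) subunit genes in each library, in percent of all counts of that library, by group, with the mean and SD of 3 libraries; both axes start at 0. The mitochondrial share was 2.97% to 3.31% in EVsub and 4.64% to 4.92% in EV, while the nuclear share stayed between 0.691% and 0.840% everywhere.

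Growth before confluence went with lower mitochondrial transcripts. In EVsub against EV, 9 of the 13 mitochondrial genes fell and none rose, and all 13 log2 fold changes were negative, with a median of -0.48 against -0.02 over all genes tested. Among all genes tested, 19.8% were called higher and 17.1% lower in this comparison (edgeR, Benjamini-Hochberg adjusted p under 0.05), so a share of 69.2% of the mitochondrial set fell where 17.1% of all genes did. The nuclear set did not move with them, as 14 of 78 members rose and 3 fell (17.9% and 3.85%). With library totals in place of TMM factors, the default scaling of edgeR that was used unless stated, the nuclear calls were 12 higher and 5 lower, and all 9 mitochondrial calls were kept. Here and below, shares of all genes called were counted only with TMM factors and all 24 libraries. Counts under other settings have no such share beside them.

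MT-ND6, the complex I subunit on the opposite strand to the other 12 genes, was at 367, 410 and 373 CPM in EV and at 240, 219 and 189 CPM in EVsub. The groups did not overlap, and MT-ND6 had a log2 fold change of -0.83 ± 0.19 (SE; edgeR adjusted p = 0.0014). MT-CO2 was at 7656, 8647 and 8613 CPM in EV and at 4893, 5199 and 4541 CPM in EVsub, again without overlap (-0.77 ± 0.14; adjusted p = 2.4e-04). Cytochrome b, encoded by MT-CYB and the only subunit of complex III that the mitochondrial genome supplies, had a log2 fold change of -0.57. MT-CO1 (-0.57), MT-CO3 (-0.46), MT-ND1 (-0.53), MT-ND4 (-0.37), MT-ND5 (-0.55) and MT-ATP6 (-0.48) also fell. MT-ND2, MT-ND3, MT-ND4L and MT-ATP8 had log2 fold changes of -0.16, -0.22, -0.24 and -0.10 and did not pass the test. The ribosomal RNAs of the mitochondrial genome fell as well, MT-RNR1 by 0.52 and MT-RNR2 by 0.87 on the log2 scale. The number of mitochondrial calls dropped to 4 without the third EVsub library and to 5 without the second EV library.

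NDUFA5, a peripheral accessory subunit of complex I (ENSG00000128609, GRCh38 chromosome 7, 123536997 to 123557904, minus strand), was the nuclear member that rose most in EVsub. It was at 35.4, 26.0 and 27.5 CPM in EV and at 68.6, 51.2 and 59.3 CPM in EVsub, with no overlap (log2 fold change 1.01 ± 0.16; edgeR adjusted p = 6.6e-05). COX6C, a small structural subunit of complex IV, rose by 0.50 and UQCRB, a subunit of complex III next to the quinone site, by 0.45 on the log2 scale. The members that fell were NDUFA13, NDUFA4L2 and NDUFA11, an accessory subunit in the membrane arm (-0.38). NDUFA13 was at 3.38, 2.71 and 2.72 CPM in EV and at 1.41, 1.26 and 0.852 CPM in EVsub (-1.35 ± 0.23). It held a mean of 57.5 counts and overlaps 2 genes on its own strand, so its counts are uncertain. NDUFA4, a subunit of complex IV once assigned to complex I, rose by 0.28 on the log2 scale, which turned to -0.23 when counts were offset for GC content and length.

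CAMTA1 cells held more mitochondrial transcripts than EVsub cells at like density. All 13 log2 fold changes were positive, with a median of 0.35 against -0.01 over all genes tested, and 3 genes rose and none fell. The share called was 1.26% higher and 0.57% lower over all genes and 23.1% higher in the mitochondrial set. MT-ND6 was at 498, 409 and 303 CPM in CAMTA1 against 240, 219 and 189 CPM in EVsub (0.90 ± 0.19; edgeR adjusted p = 0.0086), MT-ND5 at 2763, 2471 and 1832 CPM against 1501, 1357 and 1211 CPM (0.80 ± 0.16; adjusted p = 0.0077), and MT-ND1 at 1266, 1164 and 891 CPM against 721, 690 and 654 CPM (0.69 ± 0.18; adjusted p = 0.049). Each of these 3 complex I genes was higher in every CAMTA1 library than in any EVsub library. No nuclear member passed the test with edgeR, while 3 were higher and 8 lower at an unadjusted p under 0.05 and DESeq2 called 1. The share of all genes at that unadjusted threshold was not counted. The smallest CAMTA1 values came from the third library, and the 3 calls fell to 0 without the first CAMTA1 library or without the third EVsub library. MT-RNR1, the RNA of the small mitochondrial ribosomal subunit, rose too (0.63 ± 0.12).

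**Figure D2:**
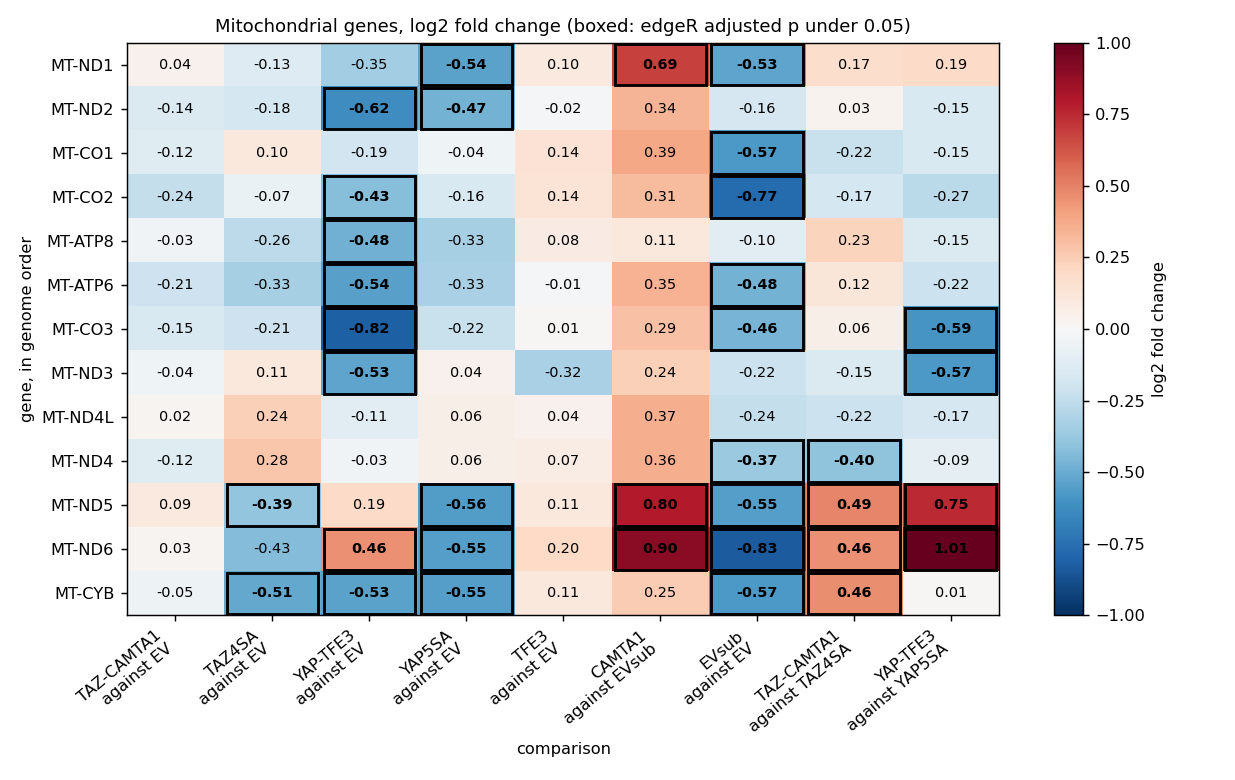
Log2 fold change of the 13 mitochondrial protein genes, in genome order from top to bottom, in the 9 comparisons (columns), with TMM scaling; boxed values had an edgeR adjusted p under 0.05. All 13 values were negative in EVsub against EV and positive in CAMTA1 against EVsub, and MT-ND5 and MT-ND6 were higher in YAP-TFE3 than in YAP5SA while MT-CO3 and MT-ND3 were lower.

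YAP-TFE3 changed the mitochondrial set unevenly. Against EV, 7 of 13 genes fell and MT-ND6 rose, with a median log2 fold change of -0.43 against -0.01 over all genes tested. Over all genes, 25.6% were called higher and 22.6% lower, and in the mitochondrial set 7.69% and 53.8%. The largest fall was in MT-CO3, a core subunit of complex IV, at 2878, 3031 and 5096 CPM against 6161, 6802 and 6412 CPM in EV (-0.82 ± 0.17; edgeR adjusted p = 2.6e-04), without overlap. MT-ND2 (-0.62), MT-ATP6 (-0.54), MT-ND3 (-0.53), MT-CYB (-0.53), MT-ATP8 (-0.48) and MT-CO2 (-0.43) also fell, and MT-ND2, MT-CYB, MT-ATP8 and MT-CO2 overlapped EV through the third YAP-TFE3 library. MT-ND6 was at 423, 442 and 714 CPM against 367, 410 and 373 CPM in EV (0.46 ± 0.19; adjusted p = 0.047).

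Without the third YAP-TFE3 library, 10 of the 13 genes fell, among them MT-CO3 (-1.13) and MT-ND2 (-1.03), and MT-ND6 was no longer called (0.17; edgeR adjusted p = 0.44). The share of all genes called in that fit was not counted, so the 10 cannot be set against it. The call for MT-ND6 was also lost with library totals in place of TMM factors (0.37). Within the mitochondrial set, where scaling has no part, the 3 YAP-TFE3 libraries lay together and apart from EV for MT-ND6, MT-ND5 and MT-CO3. For MT-ND2 and MT-CYB the third library lay nearer EV. MT-ND2 took 2.40%, 2.46% and 3.16% of the set's counts, against 3.19% to 3.54% in EV. MT-CYB took 6.33%, 6.28% and 7.31%, against 7.68% to 7.89% in EV. MT-ND6 took 1.42%, 1.37% and 1.51% of the counts of the 13 genes in YAP-TFE3 against 0.85%, 0.87% and 0.80% in EV. MT-ND5, its neighbour on the other strand, took 6.28%, 6.13% and 6.28% against 4.38%, 4.35% and 4.33%. MT-CO3 took 9.70%, 9.39% and 10.8% against 14.3%, 14.4% and 13.7%. For MT-ND6 and MT-CO3 no YAP-TFE3 library overlapped any library of another group, while for MT-ND5 the first CAMTA1 library (6.23%) lay within the YAP-TFE3 range. MT-RNR2, the RNA of the large mitochondrial ribosomal subunit, rose in the same libraries (0.38 ± 0.13), opposite to most of the messages. The counting step was not stated to use strand, so reads of MT-ND6 and reads from the opposite strand over the same bases cannot be told apart.

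**Figure D3:**
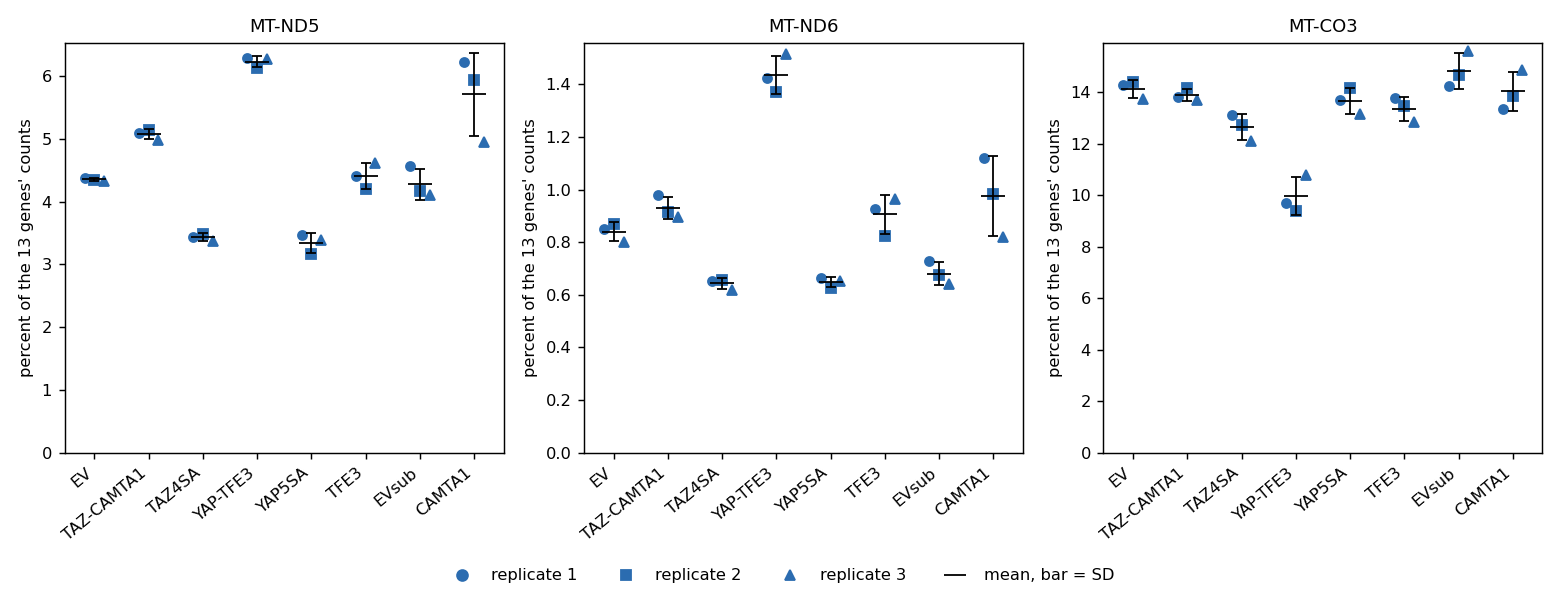
Share of MT-ND5, MT-ND6 and MT-CO3 in the summed counts of the 13 mitochondrial genes in each library, in percent, by group, with the mean and SD of 3 libraries; axes start at 0. YAP-TFE3 held the highest shares of MT-ND6 (1.37% to 1.51%) and the lowest of MT-CO3 (9.39% to 10.8%), and its MT-ND5 shares (6.13% to 6.28%) overlapped 1 CAMTA1 library.

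The same genes separated YAP-TFE3 from YAP5SA. MT-ND6 was at 248, 270 and 267 CPM in YAP5SA, below every YAP-TFE3 library (log2 fold change of YAP-TFE3 over YAP5SA 1.01 ± 0.19; edgeR adjusted p = 8.5e-05). MT-ND5 was at 1297, 1366 and 1386 CPM in YAP5SA and at 1865, 1979 and 2963 CPM in YAP-TFE3 (0.75 ± 0.16; adjusted p = 4.6e-04). MT-CO3 (-0.59) and MT-ND3 (-0.57), a small membrane subunit of complex I, were lower in YAP-TFE3. These were the 4 calls among 13 (15.4% in each direction, against 28.1% higher and 24.3% lower over all genes tested), and without the third YAP-TFE3 library 2 genes were higher and 8 lower. No share of all genes was counted for the fit without that library.

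In YAP5SA against EV, 5 mitochondrial genes fell, 4 of complex I and MT-CYB, and none rose. The share of 38.5% stood beside 21.6% of all genes called lower and 22.7% called higher. MT-ND5 (-0.56), MT-CYB (-0.55), MT-ND6 (-0.55), MT-ND1 (-0.54) and MT-ND2 (-0.47) fell, each without overlap, and the count was 9 with library totals and 2 without the second EV library or the first YAP5SA library. In the libraries labelled TAZ4SA, 2 of the 13 genes fell, MT-CYB at 2742, 2687 and 2035 CPM against 3408, 3630 and 3617 CPM in EV (-0.51 ± 0.16; edgeR adjusted p = 0.011) and MT-ND5 (-0.39 ± 0.16; adjusted p = 0.049). Over all genes 25.1% were called higher and 24.2% lower there. This mitochondrial result was not stable. No gene was called without the third TAZ4SA library, 6 fell with library totals, and 3 rose and 1 fell with offsets for GC content and length.

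More nuclear subunits rose than fell in TAZ4SA-labelled and YAP5SA libraries. In TAZ4SA against EV, 24 of 78 members rose and 8 fell (30.8% and 10.3%), with a median log2 fold change of 0.13 against -0.03 over all genes tested. In YAP5SA, 20 rose and 2 fell (25.6% and 2.56%), with a median of 0.11 against -0.04. Over all genes, 25.1% were called higher and 24.2% lower in TAZ4SA, and 22.7% and 21.6% in YAP5SA. The share that rose was thus near that of all genes in YAP5SA, and the share that fell was below it in both groups. Changes were small, with a median rise among called members of 27.3% in TAZ4SA and 25.2% in YAP5SA. Markers of other cell types moved in the same libraries. KRT8 and CDH1, 2 of 3 epithelial markers, rose and EPCAM fell in both groups, and the summed level of the 3 was 918 to 1076 CPM in TAZ4SA and 1882 to 2449 CPM in YAP5SA, beside 42.3 to 53.3 CPM in EV and 102 to 150 CPM in EVsub. Nearly all of that sum was KRT8, as CDH1 and EPCAM were at most 1.85 and 1.86 CPM in any library. The 5 mesenchymal markers summed to 2170 to 3328 CPM in TAZ4SA and 2527 to 4514 CPM in YAP5SA, beside 6142 to 7215 CPM in EV, with 3 lower and 1 higher in TAZ4SA and 2 lower and 1 higher in YAP5SA. The part of these markers in the subunit results was not tested. The direction of the set depended on scaling. With library totals the median of all genes shifted by -0.20 and -0.18, and the calls became 9 higher and 24 lower in TAZ4SA and 6 higher and 18 lower in YAP5SA, although no member called with TMM factors changed its sign. The median of the nuclear set then was -0.07 in TAZ4SA and -0.08 in YAP5SA, against -0.23 and -0.22 over all genes tested. The share of all genes called with library totals was not counted.

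Complex IV is the cytochrome c oxidase. In the libraries labelled TAZ4SA 7 of its 14 nuclear genes rose and none fell, in YAP5SA 6 rose and none fell, and in YAP-TFE3 5 rose and none fell. These shares of 50%, 42.9% and 35.7% stood beside 25.1%, 22.7% and 25.6% of all genes called higher. With library totals 4, 3 and 4 rose and 1 fell in each. Without the third YAP-TFE3 library, COX6C, COX7A2L and NDUFA4L2 were called higher in that group and COX6B1 was called lower (-0.46; edgeR adjusted p = 0.0035). COX7A2 and NDUFA4 then did not pass the test. COX7A2L, a relative of COX7A2 that helps to join complexes III and IV into supercomplexes (ENSG00000115944, chromosome 2, 42333546 to 42425088, minus strand), was at 67.7, 77.4 and 75.1 CPM in EV. It was at 125, 115 and 109 CPM in TAZ4SA, at 118, 124 and 130 CPM in YAP-TFE3 and at 106, 100 and 88.8 CPM in YAP5SA. Each of these groups lay above EV without overlap (log2 fold changes 0.66 ± 0.09, 0.76 ± 0.09 and 0.42 ± 0.09), as TAZ-CAMTA1 (78.8, 71.5 and 65.2 CPM) and TFE3 (73.1, 65.1 and 71.4 CPM) did not.

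NDUFA4L2, a relative of NDUFA4 known as a target of the hypoxia response that lowers respiration (ENSG00000185633, chromosome 12, 57234903 to 57240715, minus strand), varied most among members with a mean over 50 counts, by 9.53-fold between group means. It was at 2.14, 1.94 and 3.49 CPM in EV, at 5.30, 5.20 and 5.90 CPM in TAZ4SA, at 6.44, 7.57 and 4.83 CPM in YAP-TFE3 and at 4.44, 5.04 and 6.03 CPM in YAP5SA. Those 3 groups lay above EV without overlap, with log2 fold changes of 1.14 ± 0.25, 1.33 ± 0.24 and 1.06 ± 0.25 (edgeR adjusted p = 5.2e-04, 7.0e-05 and 0.0013). Before confluence it was lowest, at 1.18, 0.811 and 1.19 CPM in EVsub (-1.20 ± 0.29 against EV; adjusted p = 0.0022) and at 0.692, 0.794 and 0.491 CPM in CAMTA1. EVsub and CAMTA1 did not differ by the test (-0.67; adjusted p = 0.43).

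COX6B2, the form of the COX6B subunit found mainly in testis (ENSG00000160471, chromosome 19, 55349306 to 55354719, minus strand), was at 0.621, 0.267 and 0.388 CPM in EV. It was at 1.97, 2.36 and 2.24 CPM in TAZ4SA (2.33 ± 0.35; edgeR adjusted p = 6.8e-06) and at 0.992, 1.28 and 0.884 CPM in YAP5SA (1.27 ± 0.38; adjusted p = 0.0096), both above every EV library. Its counts were few, from 5 to 58 a library, and it overlaps a gene on its own strand. The common form, COX6B1, was at 121 to 132 CPM in EV and at 122 to 162 CPM in TAZ4SA and did not pass the test (0.17; adjusted p = 0.34). Of the other ubiquitous forms, COX7A2 rose in all 3 groups (0.40 in TAZ4SA, 0.36 in YAP-TFE3 and 0.41 in YAP5SA), COX4I1 (0.29) and COX8A (0.28) in TAZ4SA, and COX6A1 (0.31) in YAP5SA, each of which lost its call with library totals. In YAP-TFE3, COX7A2 was also no longer called without the third library (0.12; edgeR adjusted p = 0.35). COX7B had log2 fold changes of -0.20, 0.01 and -0.23 and did not pass the test in any of the 3. NDUFAB1, the mitochondrial acyl carrier protein that is also part of complex I, had log2 fold changes of 0.19, 0.05 and 0.09 and did not pass the test either.

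**Figure D4:**
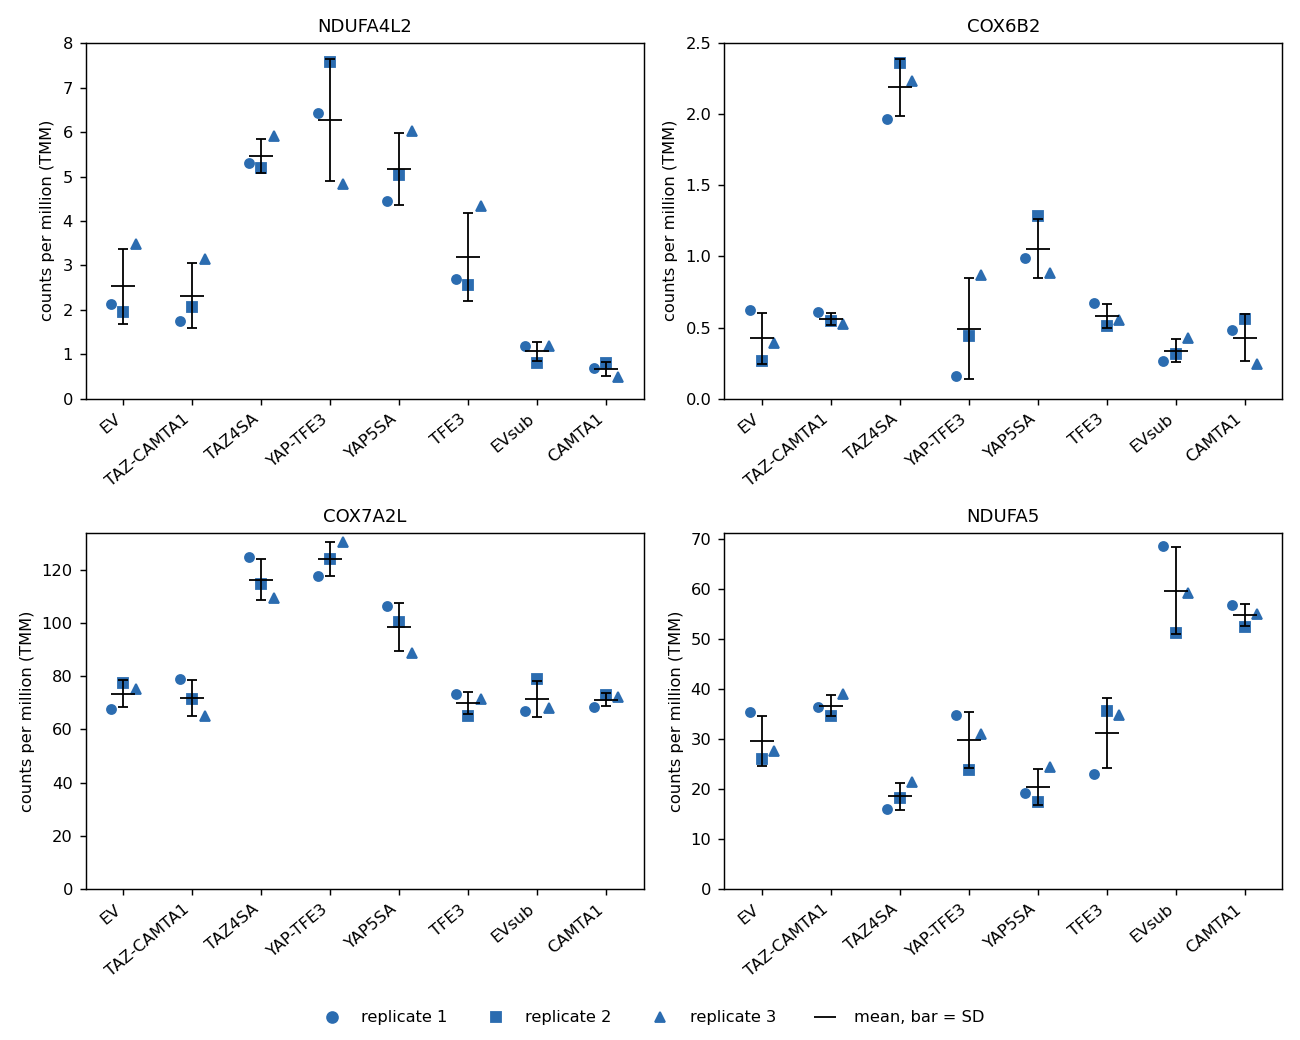
CPM (TMM-scaled) of NDUFA4L2, COX6B2, COX7A2L and NDUFA5 in each library, by group, with the mean and SD of 3 libraries; each axis starts at 0. COX6B2 was highest in the libraries labelled TAZ4SA, COX7A2L was 88.8 to 130 in TAZ4SA, YAP-TFE3 and YAP5SA and at most 79.1 elsewhere, and NDUFA5 was highest in EVsub and CAMTA1.

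Of the 9 nuclear genes of complex III, 3 rose and 1 fell in the libraries labelled TAZ4SA (33.3% and 11.1%), 3 rose and none fell in YAP5SA (33.3%), and 2 rose and none fell in YAP-TFE3 (22.2%). Beside 25.1%, 22.7% and 25.6% of all genes called higher, the YAP-TFE3 share was not above the background. Without the third YAP-TFE3 library, UQCRC2 and UQCRFS1 were called higher and UQCR10 lower (-0.27; edgeR adjusted p = 0.049). UQCRC1, one of the pair of large core proteins (ENSG00000010256, chromosome 3, 48599002 to 48610976, minus strand), was at 136, 145 and 152 CPM in EV, at 246, 227 and 209 CPM in TAZ4SA and at 211, 224 and 185 CPM in YAP5SA. Both groups lay above EV in every library (0.65 ± 0.09 and 0.52 ± 0.09; edgeR adjusted p = 1.2e-06 and 3.3e-05) and kept the call with library totals. In YAP-TFE3 the gene was at 141, 162 and 165 CPM (0.11), and YAP-TFE3 was below YAP5SA by the direct test (-0.41 ± 0.09). Its promoter was the one shown above with NRF1 and TEAD letters, whose part was not tested. UQCRFS1, the Rieske iron-sulphur subunit, was at 77.3, 84.7 and 78.6 CPM in EV and lay above it in every library of TAZ4SA (113, 107 and 101 CPM; 0.42 ± 0.08), YAP5SA (110, 101 and 96.6 CPM; 0.35 ± 0.08) and YAP-TFE3 (94.9, 102 and 114 CPM; 0.37 ± 0.08). UQCRC2, the other large core protein, rose in the same 3 groups (0.30 in TAZ4SA, 0.24 in YAP5SA and 0.31 in YAP-TFE3), and library totals ended its call in TAZ4SA and YAP5SA. The 1 that fell in TAZ4SA was UQCRB (-0.23). UQCRFS1, UQCRC2, UQCRB and UQCR10 were named here after their values were seen.

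Of the nuclear core subunits of complex I, which carry the flavin and the iron-sulphur clusters, none fell in the libraries labelled TAZ4SA, and those that rose had log2 fold changes of, among others, 0.40 for NDUFV1, 0.45 for NDUFS7 and 0.35 for NDUFS8. NDUFS1 and NDUFS3 had values of 0.08 and -0.14. NDUFV2, at 0.54, is uncertain, because a pseudogene, NDUFV2P1, held more counts than the gene. With library totals only NDUFV1 of the core subunits was called higher, and NDUFS3 was called lower (-0.34). In YAP5SA only NDUFV1 rose (0.34). The 30 accessory subunits were divided in TAZ4SA, 6 higher and 5 lower. Both shares were below those of all genes tested in TAZ4SA against EV, 25.1% higher and 24.2% lower. NDUFA5 was at 16.0, 18.3 and 21.5 CPM there and at 19.3, 17.4 and 24.4 CPM in YAP5SA, below the 26.0 to 35.4 CPM of EV (-0.68 ± 0.17 and -0.54 ± 0.17; edgeR adjusted p = 0.0019 and 0.012). NDUFB1 (-0.38) and NDUFA13 (-0.69) fell in TAZ4SA, and NDUFB3 in both (-0.32 and -0.36).

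**Figure D5:**
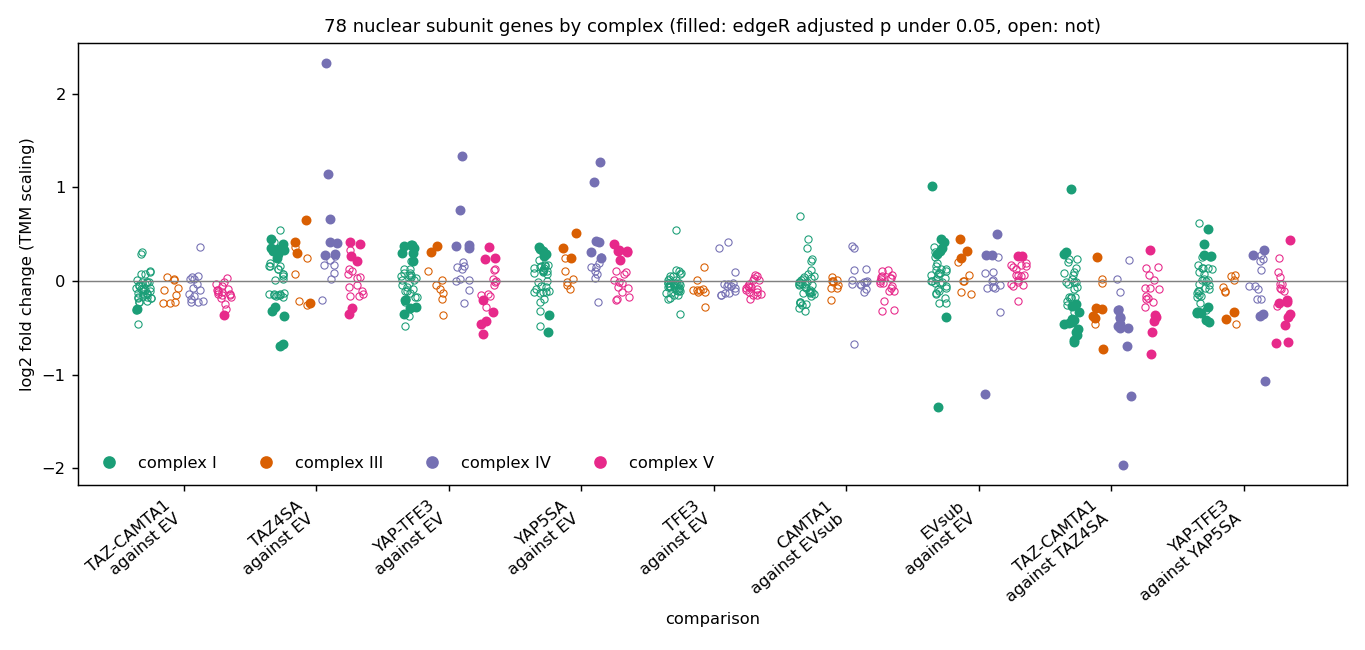
Log2 fold change (TMM scaling) of the 78 nuclear genes in each of the 9 comparisons, coloured by complex; filled points had an edgeR adjusted p under 0.05 and open points did not. In TAZ-CAMTA1 against TAZ4SA 33 members were lower and 5 higher, while TFE3 against EV and CAMTA1 against EVsub had no filled point; 1 shared scaling places the zero line.

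In YAP-TFE3 the nuclear set was split, with 17 members higher and 9 lower than EV (21.8% and 11.5%; 13 and 20 with library totals) and a median of 0.01. With TMM factors both shares were below those of all genes, 25.6% higher and 22.6% lower. By complex, complex IV had 5 genes higher and none lower, whereas complex V had 3 higher and 5 lower. Without the third YAP-TFE3 library, COX6B1 of complex IV was called lower (-0.46). ATP5MC1, one of 3 genes for the same mature c subunit of the ATP synthase rotor, was at 28.5, 29.9 and 43.4 CPM against 47.2, 51.0 and 52.6 CPM in EV (-0.57 ± 0.13; edgeR adjusted p = 0.0010). ATP5MC2, the second, was at 107, 121 and 122 CPM against 142, 147 and 150 CPM (-0.33 ± 0.10; adjusted p = 0.0064). Both lay below every EV library. ATP5MC3 was at 111, 118 and 179 CPM against 160 to 170 CPM in EV and did not pass the test (-0.28). Without the third library it fell (-0.53). ATP5F1D, the delta subunit of the stalk, fell by 0.46 and ATP5IF1, the inhibitor that blocks reverse rotation of the enzyme, by 0.43 on the log2 scale. NDUFC1 (0.38) and NDUFA4 (0.37) rose. NDUFA4 was at 112, 111 and 168 CPM in YAP-TFE3, so its size rested on the third library, without which the nuclear calls were 12 higher and 14 lower. The share of all genes called without that library was not counted.

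Each fusion was also set against the libraries labelled with the serine-to-alanine mutant of its parent. TAZ-CAMTA1 lay below the libraries labelled TAZ4SA in 33 nuclear members and above them in 5 (42.3% and 6.41%, against 26.8% lower and 26.9% higher over all genes tested), with a median of -0.22. With library totals the counts were 20 lower and 15 higher, and the share of all genes called was not counted at that scaling. The genes that were lower included COX6B2 (-1.97), NDUFA4L2 (-1.23), ATP5MC2 (-0.78), COX7A2L (-0.70), COX4I1 (-0.50) and COX8A (-0.50), and 10 of the 14 complex IV genes. ATP5MC2 was at 130, 110 and 103 CPM in TAZ-CAMTA1 and at 209, 200 and 179 CPM in TAZ4SA, without overlap (edgeR adjusted p = 3.7e-07). NDUFA5 was higher in TAZ-CAMTA1 (36.5, 34.7 and 39.0 CPM; 0.98 ± 0.17), as were NDUFB1 (0.31) and ATP5F1E (0.33, which turned to -0.26 with offsets for GC content and length). In the mitochondrial set MT-ND5 (0.49), MT-ND6 (0.46) and MT-CYB (0.46) were higher and MT-ND4 (-0.40) lower, and offsets for GC content and length gave 1 higher and 3 lower.

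YAP-TFE3 lay below YAP5SA in 20 nuclear members and above it in 7 (25.6% and 8.97%), which library totals turned to 10 and 17. With TMM factors the share lower was near the 24.3% of all genes, and the share higher was below the 28.1% of all genes. Complex V held 8 of the 20, among them ATP5MC1 (-0.66 ± 0.13), ATP5MC2 (-0.65 ± 0.10) and ATP5IF1 (-0.22). COX6B2 (-1.06), COX4I1 (-0.35) and COX6B1 (-0.38) of complex IV were also lower. COX7A2L (0.33), NDUFA5 (0.55), ATP5MK (0.43), a small subunit of the membrane part of complex V, and NDUFC1 (0.39) were higher. NDUFA4L2 did not pass the test between the 2 groups (0.27; edgeR adjusted p = 0.33).

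TAZ-CAMTA1 changed few members against EV. ATP5MC2 was at 130, 110 and 103 CPM against 142, 147 and 150 CPM in EV (-0.36 ± 0.10; edgeR adjusted p = 0.027), without overlap. No member rose, and the 2 calls are 2.56% of the nuclear set beside 1.44% of all genes called lower and 3.55% higher. Of the 78 nuclear log2 fold changes 62 were negative, with a median of -0.10 against 0.00 over all genes tested. No mitochondrial gene was called by edgeR or DESeq2 or had an unadjusted p under 0.05. The collection density of TAZ-CAMTA1, described above, bears on each of these values and its part was not tested.

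TFE3 changed no member. No nuclear or mitochondrial gene was called by edgeR or DESeq2, and at an unadjusted p under 0.05 2 nuclear members and 1 mitochondrial gene were lower and none higher. Over all genes 0.035% were called higher and 0% lower at an adjusted p under 0.05. The share of all genes at the unadjusted threshold was not counted, so the unadjusted counts have no background beside them. Medians were -0.06 in the nuclear set and 0.08 in the mitochondrial set, and the 3 TFE3 libraries overlapped EV for all 13 mitochondrial genes. Their ratio of mitochondrial to nuclear subunit counts, given above, lay above EV in every library.

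Complex II, which is encoded wholly in the nucleus and also belongs to the tricarboxylic acid cycle, was read beside the set. SDHB, its iron-sulphur subunit, was at 56.2, 61.6 and 61.2 CPM in EV, at 99.7, 103 and 102 CPM in TAZ4SA, at 82.3, 85.7 and 100 CPM in YAP-TFE3 and at 104, 96.3 and 92.9 CPM in YAP5SA. It rose in all 3 without overlap (0.77, 0.59 and 0.71) and in EVsub (0.41). SDHB was the only 1 of the 4 genes of complex II called higher in those 3 groups, where SDHC and SDHD were not called. SDHD rose in EVsub as well (0.57). SDHA, the flavoprotein, was at 174, 197 and 296 CPM in YAP-TFE3 against 280, 300 and 310 CPM in EV (-0.42 ± 0.12), and the third library overlapped EV. CYCS, the mobile electron carrier cytochrome c, was at 97.3, 85.9 and 82.8 CPM in EV and at 193, 151 and 173 CPM in EVsub (0.96 ± 0.11; edgeR adjusted p = 2.9e-06). Its rise there stood beside the fall of the mitochondrial genes in the same libraries.

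Of 8 nuclear regulators of these genes, PPARGC1A, the coactivator PGC-1 alpha that drives mitochondrial biogenesis, showed the widest change. It was at 10.4, 8.10 and 8.56 CPM in YAP-TFE3 and at 0.345, 0.381 and 0.533 CPM in EV (4.44 ± 0.29; edgeR adjusted p = 1.1e-11), and it was higher than in YAP5SA as well (3.63 ± 0.27). PPARGC1B, its relative, rose in YAP-TFE3 (0.64), in CAMTA1 over EVsub (0.48) and in EVsub over EV (0.30) and fell in YAP5SA (-0.41) and TAZ4SA (-0.29). ESRRA, a nuclear receptor partner of these coactivators, rose in the libraries labelled TAZ4SA, at 73.8, 73.6 and 70.3 CPM against 40.8, 40.4 and 45.0 CPM in EV (0.79 ± 0.10). NRF1 rose in TAZ4SA (0.23) and YAP5SA (0.32), calls that library totals ended, and fell in YAP-TFE3 (-0.32). GABPA, an ETS factor, fell in TAZ4SA (-1.09) and YAP5SA (-0.83) and rose in EVsub (0.60). How far any of these bears on the subunit genes was not tested.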

How the data were processed

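Poly(A) RNA of 24 libraries was sequenced as paired reads with a stranded kit. The deposited values are raw counts per Ensembl gene (release 78), 1 file per library, which the authors made with bcbio-nextgen 1.0.8. The methods name Hisat2 alignment to hg38 and also Salmon with tximport for gene-level counts. Which route gave the deposited whole-number counts, and how it treated strand and reads with several alignments, is not given in the sources used here. Groups came from sample titles. Symbols, positions and canonical transcripts came from GENCODE release 44 (56104 of 60279 identifiers matched). Counts of the 19997 genes averaging 5 or more were fitted in edgeR 4.0.16 (R 4.3.3, quasi-likelihood F test, TMM, 1 mean per group over all libraries), with Benjamini-Hochberg adjustment over all genes and a call at 0.05. With 3 libraries a group, an exact permutation test could reach 0.1 at lowest and was not used. The 3 libraries of a group came from cells transduced and selected separately, per the study's methods, so p-values measure the spread between such lines of 1 cell line.

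Members and gene lists were chosen with earlier results of these data known. Named were the 13 mitochondrial genes, the 3 highest and 3 lowest called nuclear members per comparison, isoform pairs, ATP5IF1, NDUFAB1, complex II, cytochrome c and regulators. NDUFV1, NDUFS7, NDUFS8 and ATP5F1B, and other genes outside a comparison's 6, were named after their values were seen. Alternatives were DESeq2 1.42.0, its size factors, total counts, scaling without the mitochondrial genome, other count minimums (1 in total, and a mean of 50), fits of the compared groups alone, a replicate block, GC and length offsets (lowess span 0.3; 98.0% of genes had both) and each library left out. Scripts were tested on simulated counts. Values of 1 member are not reported here, although it is counted in the set.

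Members with near copies are uncertain. The files list 390 nuclear copies of mitochondrial protein genes, which held 1.01% to 1.55% of the mitochondrial set's counts, and 46 nuclear members have named pseudogenes.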

Additional observations from a re-analysis of the deposited data

How the results depend on the processing

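Counts of members called here add higher and lower calls, so a change of direction did not show in them. With total counts, nuclear calls turned from mostly higher to mostly lower in TAZ4SA, YAP-TFE3 and YAP5SA against EV. They turned from mostly lower to mostly higher in YAP-TFE3 against YAP5SA. Every such added count moved by less than 1.5 times except as follows. With no filter beyond 1 count, TAZ-CAMTA1 against EV had 1 nuclear call, TAZ4SA against EV 6 mitochondrial calls and CAMTA1 against EVsub 9. Fits of the compared groups alone gave 6 mitochondrial calls in TAZ4SA, 15 nuclear and 5 mitochondrial calls in YAP-TFE3 against EV, 3 nuclear and 8 mitochondrial calls in CAMTA1, and 13 nuclear calls in YAP-TFE3 against YAP5SA. Total counts gave 6 mitochondrial calls in TAZ4SA and 9 in YAP5SA, and scaling without the mitochondrial genome gave 1 in TAZ4SA. Offsets for GC content and length gave 4 mitochondrial calls in TAZ4SA and 3 in YAP5SA, with or without the replicate block, and 5 in YAP-TFE3 against EV with it. DESeq2 gave 1 nuclear call in CAMTA1. NDUFA4 in EVsub (-0.23 with offsets, and -0.23 with offsets and the block) and ATP5F1E in TAZ-CAMTA1 against TAZ4SA (-0.26 and -0.26) changed sign. The cause was not tested.

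Leaving out 1 library at a time gave 0 to 2 nuclear calls in TAZ-CAMTA1 against EV, 20 to 29 in TAZ4SA, 17 to 26 in YAP-TFE3 and 13 to 33 in YAP-TFE3 against YAP5SA, the 13 without the second YAP5SA library and the 33 without the third YAP-TFE3 library. Mitochondrial calls ranged from 0 to 1 in TAZ4SA, 3 to 10 in YAP-TFE3 against EV (3 without its first library, 4 without its second and 5 without the second EV library), 2 to 4 in YAP5SA, 0 to 3 in CAMTA1, 4 to 9 in EVsub, 1 to 3 in TAZ-CAMTA1 against TAZ4SA (1 without the third TAZ4SA library) and 4 to 10 in YAP-TFE3 against YAP5SA. Of 91 named calls, 40 held under every alternative tried and 50 were lost under at least 1.

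Equal replicate numbers did not pair the libraries. Correlations of deviations between libraries with the same number lay between -0.24 and 0.22, and no comparison had every pair above 0.1. With the replicate block, TAZ4SA against EV had 32 nuclear and 2 mitochondrial calls, YAP-TFE3 against EV 24 and 8, and 89 of the 91 named calls were kept.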

Other observations

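The wider mitochondrial gene lists moved beside the subunits. Genes of the mitochondrial ribosome, which translates the 13 mitochondrial messages, numbered 78. In the libraries labelled TAZ4SA 30 rose and 9 fell, in YAP5SA 28 rose and 6 fell, and in EVsub against EV 28 rose and 3 fell. YAP-TFE3 had 10 higher and 14 lower than EV, or 8 and 26 with library totals, and 31 lower and 7 higher than YAP5SA, or 19 and 12 with library totals. In TAZ-CAMTA1 against TAZ4SA 43 were lower and 6 higher, or 28 and 13 with library totals. Of 13 tricarboxylic acid cycle genes, 10 rose and 2 fell in TAZ4SA and 8 rose and none fell in YAP5SA, with medians of 0.36 and 0.30, larger than the medians of the nuclear subunits. DLD and SUCLA2 were the 2 that fell in TAZ4SA (-0.45 and -0.70). Of 48 assembly factors tested, 16 rose and 6 fell in YAP-TFE3 and 15 rose and 2 fell in EVsub. With library totals the mitochondrial ribosome had 16 higher and 24 lower in TAZ4SA, 12 and 19 in YAP5SA and 22 and 4 in EVsub, the tricarboxylic acid cycle 6 and 2 in TAZ4SA and 4 and 2 in YAP5SA, and the assembly factors 10 and 10 in YAP-TFE3 and 9 and 6 in EVsub. Of all genes tested, with TMM factors, 25.1% were called higher and 24.2% lower in TAZ4SA, 22.7% and 21.6% in YAP5SA, 25.6% and 22.6% in YAP-TFE3, 19.8% and 17.1% in EVsub, 26.9% and 26.8% in TAZ-CAMTA1 against TAZ4SA, and 28.1% and 24.3% in YAP-TFE3 against YAP5SA. No such shares were counted with library totals. The mitochondrial ribosome in YAP-TFE3 (12.8% and 17.9%) lay below both shares, and the assembly factors had 33.3% higher and 12.5% lower in YAP-TFE3 and 31.2% and 4.17% in EVsub.

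Of 29 genes that transcribe the mitochondrial genome, copy it or process its RNA, 17 rose and 1 fell in EVsub against EV, where mitochondrial transcripts fell (58.6% and 3.45%, beside 19.8% and 17.1% of all genes), with a median log2 fold change of 0.39. TFAM, which packages mitochondrial DNA and starts its transcription, was at 62.3, 61.5 and 65.4 CPM in the CAMTA1 libraries, at 72.2, 54.0 and 62.5 CPM in EVsub and at 43.4, 32.7 and 29.3 CPM in EV (EVsub over EV 0.84 ± 0.16; edgeR adjusted p = 2.7e-04). LRPPRC, which stabilises mitochondrial messages, rose by 0.58 on the log2 scale. POLRMT, the mitochondrial RNA polymerase, was at a mean of 45.4 CPM in EVsub against 52.9 CPM in EV and did not pass the test (-0.22; edgeR adjusted p = 0.10), and FASTK fell (-0.31). With library totals the 17 and 1 became 15 and 3. In the libraries labelled TAZ4SA 14 of the 29 fell and 6 rose (16 and 3 with library totals), TFAM among those that fell (-0.45) and POLRMT among those that rose (0.62). None of the 29 passed the test in CAMTA1 against EVsub or in TFE3 against EV, while 1 was lower in TAZ-CAMTA1 against EV. TFAM, LRPPRC, POLRMT, FASTK, DLD and SUCLA2 were named after their values were seen.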
